A study of Danio rerio with 24 samples.

Results

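The 8 genes described here are known for oocytes and germ cells: buc, zp3a.1, zp3b, zar1, ddx4, dazl, piwil1 and dnd1. They are 8 of the 32105 genes in the count files, and each matched 1 Ensembl ID. They were selected on measured values, because buc and zp3a.1 had been lower in larvae after 1.2 nM PCB126 than after DMSO. Comparisons that use those larvae are therefore given as descriptions, with no test, for the members and for other genes.

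The study measured RNA of zebrafish whose embryos had been kept in the solvent DMSO or in PCB126, a polychlorinated biphenyl that acts as dioxin does, through the aryl hydrocarbon receptor. There were 24 libraries, 3 in each of 8 groups, which the series text calls biological replicates. Whole embryos at 48 hours post-fertilization (hpf) came from DMSO or 0.3 nM PCB126, and whole larvae at 5 days post-fertilization (dpf) from DMSO, 0.3 nM or 1.2 nM PCB126. Adult brains at 4 months came from the same 3 treatments after rearing in clean water. The labels name no strain, transgene or sex, and do not say how many animals went into a library.

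In fish, the oocyte stores RNA and protein for the early embryo and surrounds itself with an egg coat built of zona pellucida (zp) glycoproteins. It also gathers germ plasm, the material that marks the cells that become the next germ line, around a structure called the Balbiani body. Primordial germ cells that inherit this material migrate to the gonad, where zebrafish pass through a juvenile phase before the ovary or testis forms. A 5 dpf larva has a gonad primordium with few germ cells, and the brain is not a site where these genes are best known.

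Total counts ran from 12480715 to 14932821 reads in DMSO larvae, from 15564323 to 18668231 at 0.3 nM and from 16831991 to 20662041 at 1.2 nM. In brain the DMSO libraries were the deepest, at 19498374 to 23022236 reads against 13097392 to 18043641 in exposed ones, and embryos had 12974658 to 17750955. The members lie near the lower limit of what this depth shows: their reads summed over all 24 libraries ranged from 48 for dnd1 to 820 for piwil1. The filter on low counts passed 2 of the 8 in embryos (ddx4, piwil1), 6 in larvae (all but dazl and dnd1), 3 in brain (zp3b, dazl, piwil1) and 7 in the fit of all ages (all but dnd1). The tissue labels were checked by defining markers: mbpa, a myelin gene, had 67215 to 251305 reads in brain and at most 1872 in whole animals, and krt4, a skin keratin, had at least 77634 in whole animals and at most 1094 in brain. As a check of exposure, cyp1c1, a gene the receptor induces, was higher at 0.3 nM in embryos (log2 fold change 2.2, SE 0.19, adjusted p = 0.00272 by edgeR's quasi-likelihood test; 0.107 without DMSO replicate 2). In larvae it had 258 to 284 reads after DMSO, 465 to 573 at 0.3 nM and 1532 to 2747 at 1.2 nM.

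Among the oocyte genes, buc was the member with the widest gap between larval groups. buc (ENSDARG00000096095) encodes Bucky ball, the protein that organizes the Balbiani body and germ plasm in zebrafish oocytes. DMSO larvae held 27, 14 and 11 buc reads in replicates 1 to 3, larvae at 0.3 nM held 10, 3 and 12, and larvae at 1.2 nM held 3, 3 and 7. Every DMSO larval library was above every exposed one in CPM (counts scaled to library size), while the 0.3 nM and 1.2 nM libraries overlapped. The levels were 1.24 ± 0.501 CPM after DMSO, 0.46 ± 0.236 at 0.3 nM and 0.225 ± 0.0974 at 1.2 nM (mean ± SD, n = 3 each). The fitted log2 fold change was -2.41 (SE 0.47) at 1.2 nM and -1.39 (SE 0.42) at 0.3 nM, both against the same DMSO libraries. By summed reads, 52 after DMSO against 13 at 1.2 nM, buc was 5.48-fold lower at 1.2 nM after scaling by library size, with a counting interval of 2.94 to 11. These values are a description of libraries on which buc was selected.

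zp3a.1 (ENSDARG00000042129) encodes a glycoprotein of the egg coat. It had 32, 22 and 14 reads in DMSO larvae, 17, 8 and 9 at 0.3 nM and 10, 7 and 7 at 1.2 nM. As for buc, no exposed larval library reached the lowest DMSO library in CPM. Its level was 1.63 ± 0.516 CPM after DMSO, 0.64 ± 0.241 at 0.3 nM and 0.436 ± 0.142 at 1.2 nM. The fitted log2 fold changes were -1.93 (SE 0.37) at 1.2 nM and -1.34 (SE 0.35) at 0.3 nM. Of the 6 members that passed the filter in larvae, buc and zp3a.1 were the 2 whose 1.2 nM libraries all lay below all DMSO libraries, where 6.1% of all genes tested did so. The same 2 of 6 lay below DMSO without overlap at 0.3 nM, where 5.51% of genes did. The selection used these libraries, so nothing is read from these counts.

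The other egg coat gene among the members, zp3b (ENSDARG00000039828), had 49, 9 and 15 reads in DMSO larvae, 23, 15 and 16 at 0.3 nM and 12, 13 and 12 at 1.2 nM. DMSO replicate 1 stood well above the rest, and the other DMSO libraries overlapped the exposed ones. Its fitted log2 fold change at 1.2 nM was -1.41 (SE 0.49), and -0.48 without DMSO replicate 1. At 0.3 nM it was -0.77 (SE 0.46), and 0.16 without that library, so the direction at the lower dose rested on 1 library. Between the doses, all 1.2 nM libraries lay below all 0.3 nM libraries, at 0.662 ± 0.0742 against 1.03 ± 0.196 CPM, as did 4.71% of all genes tested.

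zar1 (ENSDARG00000019706), an RNA-binding protein of oocytes whose loss in fish disturbs egg formation, differed less. Its reads were 14, 11 and 5 in DMSO larvae, 13, 6 and 14 at 0.3 nM and 4, 9 and 10 at 1.2 nM, and all 3 groups overlapped. The fitted log2 fold changes were -0.83 (SE 0.44) at 1.2 nM and -0.21 (SE 0.41) at 0.3 nM.

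**Figure D1:**
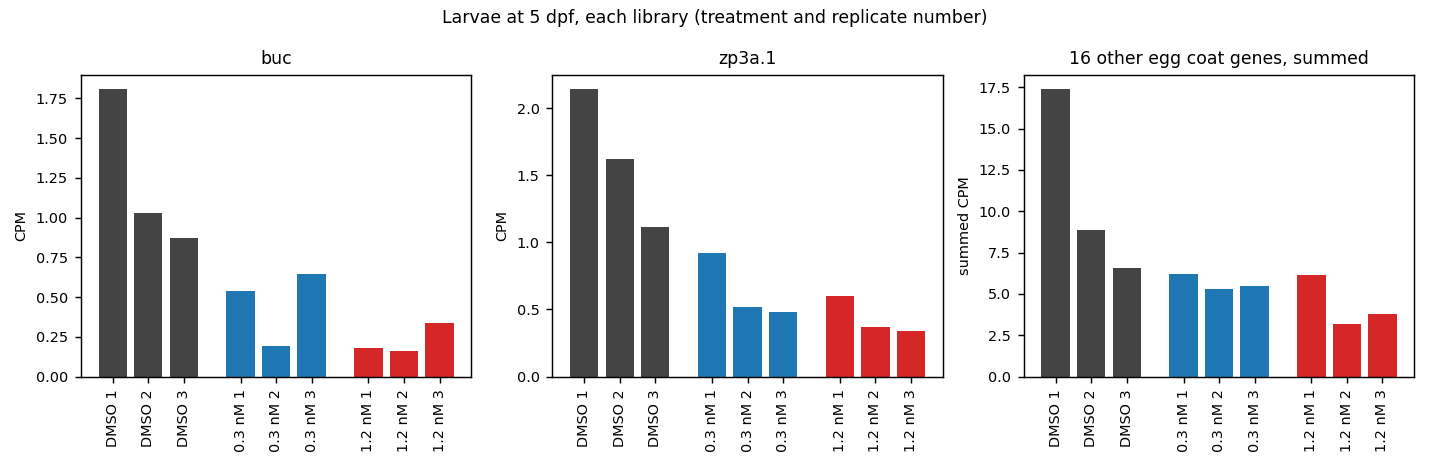
Bars show CPM of buc (left), CPM of zp3a.1 (middle) and the summed CPM of 16 other egg coat genes (right) in each of the 9 larval libraries at 5 dpf, named by treatment and replicate number (grey DMSO, blue 0.3 nM, red 1.2 nM). DMSO replicate 1 is the highest library in each panel, and for buc and zp3a.1 every exposed library lies below every DMSO library. The 16 genes were set out after their values were seen.

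Leaving out each library in turn moved the log2 fold change of buc at 1.2 nM between -2.84 and -2.02 and that of zp3a.1 between -2.2 and -1.67. Both were nearest to 0 without DMSO replicate 1. Summed over the 4 oocyte members, that library had 8.17 CPM, the other DMSO larvae had 4.12 and 3.57, larvae at 0.3 nM had 2.08 to 3.40 and larvae at 1.2 nM had 1.70 to 1.74. In bulk libraries such as these, fewer cells of a type and less RNA per cell cannot be told apart.

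Egg coat genes outside the members showed the same library at the top. zp genes have close copies, among them zp3a.1 and zp3a.2, so reads of 50 bases may be split between copies or left uncounted, and their single values are uncertain. Of 16 further genes named zp2, zp3, zpcx or zpd in the names table, 13 had their highest DMSO larval CPM in replicate 1, 3 in replicate 2 and 0 in replicate 3. Their summed level was 17.4, 8.84 and 6.59 CPM in DMSO replicates 1 to 3, 6.21, 5.32 and 5.49 CPM at 0.3 nM and 6.17, 3.18 and 3.76 CPM at 1.2 nM. The lowest DMSO sum, 6.59 CPM, was thus above the highest exposed sum, 6.21 CPM, with DMSO replicate 1 the highest. These 16 genes were set out after their values were seen, and the DMSO and 1.2 nM larvae were used in the selection. The gap between the sums is therefore a description and is not read as support. Embryos had 1.88 to 4.51 CPM and brains 2.24 to 7.08 CPM in the same sum. In brain, 1 gene made up a varying part of it. zp2l2 had 48, 31 and 44 reads in DMSO brains, where the 16 genes summed to 70 to 83 reads. It had 1, 40 and 2 reads at 0.3 nM, beside sums of 36 to 89, and 82, 1 and 24 at 1.2 nM, beside 38 to 129.

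Of a list of 37 further oocyte and egg coat symbols, 30 matched a gene and 10 passed the filter in larvae. At 1.2 nM against DMSO, 9 of the 10 had a log2 fold change below 0, with a median of -1.18 where the median of all genes was 0.00. At 0.3 nM, 9 of 10 were below 0, with a median of -0.58. These larvae share their libraries with the selection of the members, so the list is no independent sign of a direction.

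4 genes of that list can be set beside buc. ca15b, a carbonic anhydrase known from zebrafish germ cells, had 27, 16 and 12 reads in DMSO larvae, 14, 7 and 15 at 0.3 nM and 7, 6 and 11 at 1.2 nM. Its log2 fold change at 1.2 nM was -1.63 (SE 0.37). zpcx, an egg coat gene, had 29, 8 and 12 reads after DMSO and 10, 4 and 4 at 1.2 nM (log2 fold change -1.86, SE 0.51). zp3a.2, another egg coat gene, had 40, 19 and 7 reads after DMSO and 16, 3 and 11 at 1.2 nM, and h1m, the linker histone of oocytes, had 32, 12 and 1 against 7, 10 and 3. In both genes DMSO replicate 1 was the highest library and replicate 3 overlapped the exposed larvae.

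Among the germ cell members, larvae showed no shared direction. ddx4 (ENSDARG00000014373, also called vasa) encodes a DEAD-box RNA helicase of germ granules. It had 8, 7 and 13 reads in DMSO larvae, 19, 16 and 16 at 0.3 nM and 9, 25 and 12 at 1.2 nM, and the groups overlapped in CPM. Its log2 fold change was 0.25 (SE 0.42) at 1.2 nM and 0.50 (SE 0.41) at 0.3 nM. piwil1 (ENSDARG00000041699, Ziwi), the Argonaute protein that carries piRNAs and silences transposons, had 35, 29 and 18 reads after DMSO, 49, 17 and 32 at 0.3 nM and 32, 61 and 27 at 1.2 nM. With log2 fold changes of 0.10 (SE 0.37) and -0.10 (SE 0.38) it lay within its own spread at both doses.

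The remaining pair was too low for the larval fit. dazl (ENSDARG00000036214), an RNA-binding protein needed for germ cell development, had 8, 11 and 4 reads after DMSO, 4, 3 and 5 at 0.3 nM and 4, 14 and 9 at 1.2 nM. Its 0.3 nM libraries lay below all DMSO libraries in CPM, at 0.227 ± 0.0383 against 0.554 ± 0.247 CPM, as did 5.51% of all genes tested. In unscaled reads these groups overlapped. Its 1.2 nM libraries overlapped both groups in CPM. The DMSO larvae were used in the selection, so nothing is read from this gap. dnd1 (ENSDARG00000022813, dead end), which keeps primordial germ cells alive and migrating, had 1, 0 and 2 reads after DMSO, 5, 1 and 0 at 0.3 nM and 1, 4 and 4 at 1.2 nM. A sum of 3 reads over the DMSO larvae has a counting interval of 0.619 to 8.77 reads. The scaled ratio of dnd1 to DMSO was 2.19 at 1.2 nM (counting interval 0.546 to 12.6) and 1.57 at 0.3 nM (0.334 to 9.67). Neither difference went beyond counting error. Summed over the 4 germ cell members, larvae had 2.94 to 3.48 CPM after DMSO, 2.40 to 4.16 CPM at 0.3 nM and 2.5 to 5.51 CPM at 1.2 nM.

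Gonad somatic cell genes gave a measure of the tissue around germ cells. Of 34 symbols 22 matched and 14 passed in larvae, 9 of them with a log2 fold change below 0 at 1.2 nM and a median of -0.14. Their summed level was 47.9 to 51.5 CPM after DMSO, 50.3 to 52.9 CPM at 0.3 nM and 47.0 to 49.8 CPM at 1.2 nM. Of the piRNA pathway list, 11 of 17 matched genes passed, 7 of them below 0 at 1.2 nM (median -0.16), and of the meiosis list 13 of 26 passed, 5 of them below 0 (median 0.10). The germ plasm list, with 12 of 17 passing, had 7 below 0 and a median of -0.06. PIWIL2, the other zebrafish Piwi protein, had a log2 fold change of -0.64 (SE 0.32) and TDRD6, a scaffold of germ granules, had 0.18 (SE 0.16).

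**Figure D2:**
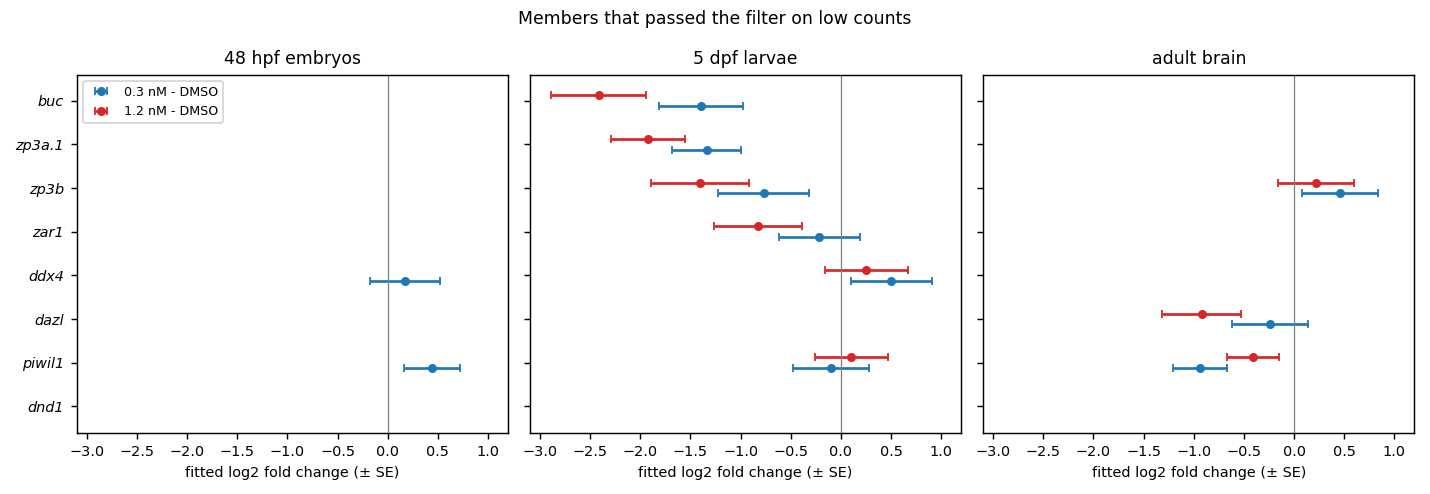
Points show the fitted log2 fold change (x axis) with its SE as bars for each member that passed the filter in embryos (left), larvae (middle) and brain (right); blue is 0.3 nM and red 1.2 nM, each against DMSO. In larvae the 4 oocyte genes lie below 0 at both doses, with buc at -2.41 and zp3a.1 at -1.93 at 1.2 nM. At 0.3 nM zar1 lies at -0.21 (SE 0.41), and alternatives brought zar1 and zp3b there as high as 0.038 and 0.16. ddx4 lies at 0.25 (SE 0.42) at 1.2 nM and 0.50 (SE 0.41) at 0.3 nM, and piwil1 at 0.10 and -0.10. The larval libraries were used to select the members.

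In 48 hpf embryos, whose libraries had no part in the selection, no member was called at 0.3 nM. piwil1 had 13, 19 and 23 reads after DMSO and 23, 19 and 25 at 0.3 nM. In CPM the exposed embryos lay above all DMSO embryos, at 1.48 ± 0.0583 against 1.09 ± 0.269 CPM (fitted log2 change 0.44, SE 0.28, adjusted p = 0.9999 by edgeR). That was 1 of 2 members tested, where 3.84% of genes lay higher without overlap. ddx4 had 23, 21 and 35 reads after DMSO and 24, 13 and 44 at 0.3 nM, and these groups overlapped (log2 fold change 0.17, SE 0.35). Thus 0 of 2 members tested were called, where 0.00987% of all genes were, 2 of 20265, and 525 genes had an unadjusted p under 0.05. Under the replicate block 27 genes passed in place of 2, and neither member was among them.

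The oocyte genes were scarce in embryos. buc had 1, 1 and 3 reads after DMSO and 1, 0 and 0 at 0.3 nM, zp3a.1 had 2, 2 and 6 against 3, 2 and 4, and zp3b had 4, 10 and 15 against 5, 6 and 11. zar1 had 9, 6 and 15 reads after DMSO and 6, 8 and 6 at 0.3 nM. Each of these 4 genes overlapped between the groups, as did dazl (7, 8 and 6 against 5, 2 and 11) and dnd1 (3, 5 and 4 against 2, 6 and 7). Exact two-sided permutation tests over the libraries of these 6 genes gave p between 0.3 and 1, where 3 libraries against 3 cannot go below 0.1. With same-numbered embryo libraries as pairs, exact two-sided sign-flip tests gave p between 0.5 and 1, where 3 pairs cannot go below 0.25. Among genes of the oocyte, germ plasm, piRNA, meiosis, gonad and yolk lists, none was called in embryos either. TDRD1, a piRNA pathway scaffold, had 12, 5 and 12 reads after DMSO and 26, 14 and 17 at 0.3 nM, with a log2 fold change of 1.12 (SE 0.40, adjusted p = 0.9999).

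In adult brain, piwil1 was lower after embryonic exposure to 0.3 nM. It had 76, 59 and 69 reads after DMSO, 16, 31 and 25 at 0.3 nM and 44, 44 and 34 at 1.2 nM. All 0.3 nM brains lay below all 1.2 nM brains, and these lay below all DMSO brains, so the order of the groups did not follow the dose. The levels were 3.25 ± 0.191 CPM after DMSO, 1.70 ± 0.617 at 0.3 nM and 2.45 ± 0.132 at 1.2 nM. At 0.3 nM the log2 fold change was -0.94 (SE 0.27, adjusted p = 0.0413 by edgeR's quasi-likelihood test), lower in 3 of 3 libraries. The call was lost with the replicate number as a block (adjusted p = 0.0588), without DMSO replicate 1, 2 or 3 (0.103, 0.055 and 0.0841), without 0.3 nM replicate 1 (log2 fold change -0.67, adjusted p = 0.0708) and without 0.3 nM replicate 3 (0.0919). At 1.2 nM piwil1 had a log2 fold change of -0.41 (SE 0.26, adjusted p = 0.328), and between the doses it was 0.53 (SE 0.27, adjusted p = 0.567).

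The count for brain at 0.3 nM was thus 1 of 3 members tested lower, where 5.9% of all genes were called lower and 7.82% higher. The 2683 calls behind these shares became 1427 without DMSO replicate 1, 1418 without DMSO replicate 3, 960 without 0.3 nM replicate 2 and 971 without 0.3 nM replicate 3. Of the same 3 members, 1 had all 0.3 nM libraries below all DMSO libraries, where 16.3% of genes did. The summed level of muscle and other non-brain markers was 57.5 to 517 CPM after DMSO, the highest value being replicate 3. It was 39.0 to 56.6 CPM at 0.3 nM and 15.6 to 58.1 CPM at 1.2 nM, the last overlapping DMSO. At 0.3 nM, 0 of the 5 such markers that passed the filter were called, though all 5 had a log2 fold change below 0. The brain markers summed to 9360 to 12700 CPM after DMSO, 6250 to 7620 CPM at 0.3 nM and 7170 to 8670 CPM at 1.2 nM. This sum was mostly mbpa, which held 79.7% to 90% of the marker reads in the DMSO and 0.3 nM brains. At 0.3 nM the 5 brain markers split: mbpa (log2 fold change -0.84, SE 0.15, adjusted p = 0.0091) and GFAP, an astroglial filament gene (-0.69, SE 0.13, adjusted p = 0.0107), fell, and ELAVL3, a neuronal RNA-binding protein, rose (0.55, SE 0.10, adjusted p = 0.00903). sypb and nefma, neuronal genes, were not called, with log2 fold changes of -0.24 (SE 0.08) and 0.09 (SE 0.18). The part of tissue content and of depth in the piwil1 result was not tested.

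**Figure D3:**
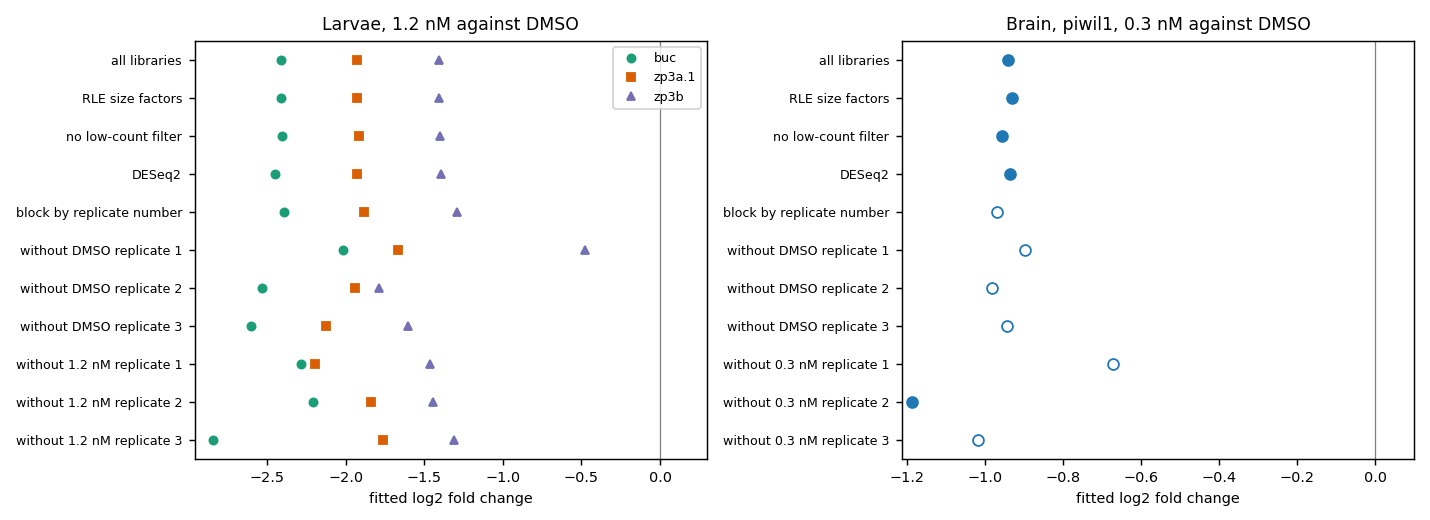
Left, the fitted log2 fold change of buc (circles), zp3a.1 (squares) and zp3b (triangles) for 1.2 nM against DMSO in larvae under each setting named on the vertical axis. Right, the same for piwil1 for 0.3 nM against DMSO in brain, with filled circles where the adjusted p was under 0.05; zp3b moves to -0.48 without DMSO replicate 1, and piwil1 stays below 0 under all settings plotted but keeps its call under 5 of the 11.

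dazl ran lower in brain at 1.2 nM without passing the test. It had 18, 14 and 11 reads after DMSO, 9, 9 and 7 at 0.3 nM and 8, 6 and 4 at 1.2 nM. The 1.2 nM libraries lay below all others, at 0.356 ± 0.0825 CPM against 0.58 ± 0.0639 at 0.3 nM and 0.687 ± 0.153 after DMSO. The log2 fold change was -0.92 (SE 0.39, adjusted p = 0.154) at 1.2 nM and -0.24 (SE 0.38, adjusted p = 0.714) at 0.3 nM.

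zp3b was read in every brain, which is not the tissue it is known for, with 32, 21 and 45 reads after DMSO, 39, 40 and 14 at 0.3 nM and 39, 30 and 22 at 1.2 nM. These groups overlapped, with log2 fold changes of 0.46 (SE 0.38) and 0.22 (SE 0.38) at 0.3 and 1.2 nM. At 1.2 nM against DMSO, 0 of the 3 members were called, where 9.05% of all genes were called and 5445 genes had an unadjusted p under 0.05. dazl and piwil1 had all 1.2 nM libraries below all DMSO libraries, 2 of 3 where 17.2% of genes did. At 1.2 nM against 0.3 nM, 0 of 3 were called, where 0.0972% of genes were called and 1885 had an unadjusted p under 0.05. Without overlap, 1 of 3 lay lower at 1.2 nM than at 0.3 nM (dazl), where 8.56% of genes did, and 1 of 3 higher (piwil1), where 8.87% did.

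The other members did not pass the filter in brain. buc was low but read in every brain: it had 12, 7 and 10 reads after DMSO, 5, 5 and 4 at 0.3 nM and 11, 7 and 1 at 1.2 nM. The 0.3 nM brains lay below the DMSO brains in CPM (0.325 ± 0.0317 against 0.459 ± 0.0908 CPM, exact two-sided permutation p = 0.1, the smallest that 3 against 3 allows). Of all genes tested, 16.3% lay lower without overlap. By summed reads, 14 against 29, the scaled ratio for buc was 0.701 with a counting interval of 0.343 to 1.37. The difference did not go beyond counting error. The rest were at or near 0. zp3a.1 had 0 reads in all 3 DMSO brains, 5, 1 and 0 at 0.3 nM and 1, 1 and 0 at 1.2 nM. zar1 had at most 2 reads in any brain, ddx4 at most 1 and dnd1 at most 1. For ddx4, with a sum of 0 reads over the 3 brains at 0.3 nM, a floor of 3 reads corresponds to 0.0697 CPM. The counting interval of that sum runs to 3.69 reads.

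List genes gave few calls in brain. At 0.3 nM, IGF2BP3 (log2 fold change 0.62, SE 0.11, adjusted p = 0.0091) and CELF1 (0.36, SE 0.10, adjusted p = 0.0357), RNA-binding proteins of the germ plasm list that are not limited to germ cells, rose. ESR1, an estrogen receptor of the gonad list that the brain also expresses, fell, at 2.67 ± 0.522 CPM and 4.36 ± 0.522 CPM after DMSO, with a log2 fold change of -0.70 (SE 0.21, adjusted p = 0.0476). The IGF2BP3 call held under all 10 alternatives, and the CELF1 call was lost without DMSO replicate 1 (0.0643) or 3 (0.0877) or 0.3 nM replicate 2 (0.124) or 3 (0.0827). The ESR1 call held only with the replicate block and without 0.3 nM replicate 1, and was lost under the other 8 alternatives (adjusted p 0.05 to 0.148). That makes 2 of 8 germ plasm genes, 1 of 12 gonad genes and 0 of 12 meiosis genes called at 0.3 nM, where 7.82% of all genes were called higher and 5.9% lower. At 1.2 nM, 0 of 8 germ plasm genes and 0 of 12 gonad genes were called, where 9.05% of all genes were. No gene of the piRNA list was called at either dose among 8 tested; henmt1, which methylates piRNAs, had a log2 fold change of -1.18 (SE 0.38, adjusted p = 0.074) at 1.2 nM. Their medians at 0.3 nM were 0.15, 0.00, 0.14 and -0.05 for germ plasm, gonad, meiosis and piRNA genes, beside -0.02 for all genes.

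The difference between the 0.3 nM effects in brain and in embryos was tested in the fit of all 24 libraries. For piwil1 it was -1.41 (SE 0.48, unadjusted p = 0.00698, adjusted p = 0.125 by edgeR), with an effect of 0.44 in embryos and -0.94 in brain. None of the 7 members tested was called, where 1.79% of genes were called and 3955 had an unadjusted p under 0.05.

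**Figure D4:**
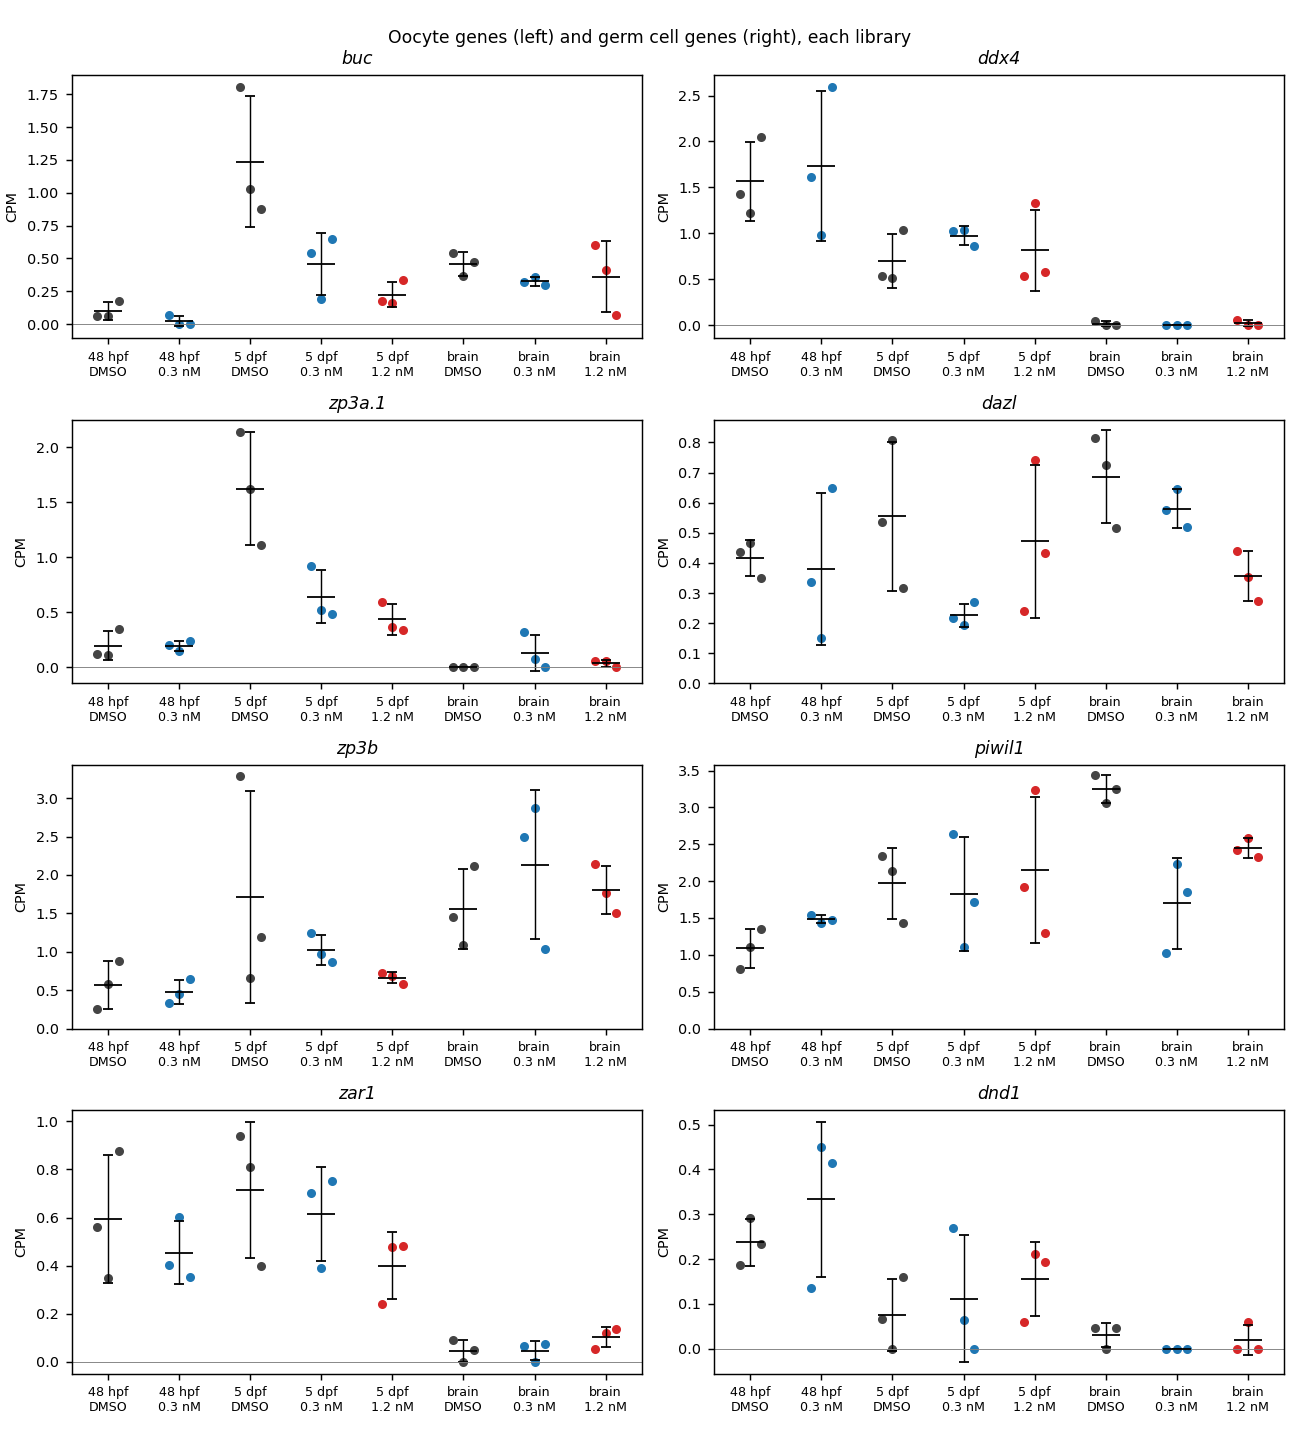
Each panel shows 1 member's CPM (y axis, from its own scale) in the 24 libraries, ordered by age and treatment on the x axis (grey DMSO, blue 0.3 nM, red 1.2 nM); horizontal marks are means and bars SD of 3 libraries. buc and zp3a.1 are highest in DMSO larvae, zar1, ddx4 and dnd1 are near 0 in brain, and piwil1 is highest in DMSO brains.

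Between ages, the members did not move as a group. Embryos and larvae are whole animals and brains are a single organ with RNA isolated by another method, so age, tissue and method cannot be told apart in comparisons with brain. In exposed animals at 0.3 nM, buc had 10, 3 and 12 reads in larvae against 1, 0 and 0 in embryos. That is 25 reads against 1, a ratio of 21.5 after scaling with a counting interval of 3.52 to 882, and it passed the test (adjusted p = 0.000804 by edgeR). zp3a.1 was higher too, with 34 reads in all against 9 (log2 fold change 1.59, SE 0.59, adjusted p = 0.0239), a call lost without embryo replicate 1 (adjusted p = 0.056) or 2 (0.0698) or larval replicate 1 (0.123). Fitted by age, both genes passed the filter in larvae and in neither embryos nor brain, so they entered the fit of all ages through the larvae, the group where they were high, DMSO larvae included. Both calls held with no filter on low counts. The count of 2 of 7 members higher and 0 of 7 lower in larvae, where 31.1% of all genes were called higher and 31.1% lower, is therefore a description and is not read as support. ddx4 had 51 reads in larvae against 81 in embryos (log2 fold change -0.91, SE 0.40, adjusted p = 0.0526), and it passed without embryo replicate 2 (log2 fold change -1.18, adjusted p = 0.0186).

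In DMSO animals the corresponding comparison used the larvae on which members were selected and is given without a test. buc had 52 reads in larvae against 5 in embryos and zp3a.1 had 68 against 10. Their log2 fold changes were 3.49 (SE 0.61) and 2.93 (SE 0.52). ddx4 ran the other way, with 28 reads against 79 (log2 fold change -1.25, SE 0.44), and dnd1 had 3 reads against 12.

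Embryos and brains of the DMSO groups, neither used in the selection, differed in 6 of the 7 members that passed the filter. Of all genes tested, 17766 of 22545 differed, so most genes did. A member could pass through the age where it was high, so the counts of members in this comparison and the next are descriptions; no member's call changed with no filter. ddx4 had 79 reads in embryos against 1 in brain, a ratio of 98.2 with a counting interval of 17.1 to 3930 (adjusted p = 1.08e-07 by edgeR). zar1 had 30 reads against 3, a ratio of 12.4 with an interval of 3.87 to 63.6 (adjusted p = 4.06e-05). zp3a.1 had 10 against 0, which was 4.14-fold higher with the 0 set to a floor of 3 reads (adjusted p = 0.00179). Those 3 of 7 members were higher in embryos, where 39.8% of genes were.

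The other 3 called members were lower in embryos than in DMSO brain, where 39% of all genes were lower. piwil1 was at 1.09 ± 0.269 against 3.25 ± 0.191 CPM (fitted log2 change -1.56, SE 0.32, adjusted p = 0.000114), and buc at 0.0987 ± 0.0666 against 0.459 ± 0.0908 CPM (fitted log2 change -2.13, SE 0.68, adjusted p = 0.00645). zp3b was at 0.57 ± 0.315 against 1.55 ± 0.521 CPM (fitted log2 change -1.42, SE 0.49, adjusted p = 0.0107), a call lost without embryo replicate 1 (adjusted p = 0.0615) or DMSO brain replicate 3 (0.0554). dazl had a log2 fold change of -0.70 (SE 0.42, adjusted p = 0.134).

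Larvae and brains at 0.3 nM gave a similar split. ddx4 had 51 reads in larvae and 0 in brain, which was 13.9-fold higher with the 0 set to the floor of 3 reads (adjusted p = 4.47e-06 by edgeR). zar1 had 33 reads against 2, a ratio of 13.5 with a counting interval of 3.46 to 116 (adjusted p = 0.000117), and zp3a.1 had 34 against 6 (log2 fold change 2.12, SE 0.64, adjusted p = 0.00471). These 3 of 7 were higher in larvae, where 39.5% of genes were. zp3b and dazl were lower, 2 of 7 where 39.3% of genes were, with log2 fold changes of -1.09 (SE 0.44, adjusted p = 0.0285) and -1.35 (SE 0.50, adjusted p = 0.0167). DESeq2 called neither (adjusted p = 0.0564 and 0.055), and the zp3b call was also lost without larval replicate 2 (0.0603) or 3 (0.0807) or brain replicate 1 (0.082) or 2 (0.122). piwil1 and buc did not pass, with log2 fold changes of 0.09 (SE 0.33) and 0.49 (SE 0.57).

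The order of a gene's group levels differed among members. buc was lowest in embryos, intermediate in brain and highest in DMSO larvae, with exposed larvae overlapping the brains. zp3a.1 was highest in DMSO larvae and lowest in brain. zp3b was highest in brain at 0.3 nM, at 2.13 ± 0.968 CPM, and there brain groups and DMSO larvae (1.71 ± 1.39 CPM) did not differ beyond their spread. ddx4 was highest in embryos, at 1.57 ± 0.43 CPM after DMSO and 1.73 ± 0.817 at 0.3 nM, intermediate in larvae and near 0 in brain. zar1 was at 0.399 to 0.715 CPM in whole animals and at most 0.103 CPM in brain. dazl stayed between 0.227 and 0.687 CPM in all 8 groups.

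The members' values over libraries show which run together. Over the 9 larval libraries, log2 CPM (prior count 2) of buc correlated with zp3a.1 at r = 0.855, with zar1 at 0.755 and with zp3b at 0.663, and with ddx4 at -0.392. These are descriptions over libraries that share treatment groups and depth, and the DMSO and 1.2 nM larvae among them were used in the selection. The genes most like buc over the same 9 libraries, of 17418 searched, were ca15b (r = 0.99), SMAD4 (0.974), hephl1a (0.951) and F2RL1 (0.95). ca15b is the only one of these 4 on a list used here, and its reads are given above.

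Over all 24 libraries, the genes most like the mean of buc, zp3a.1, zp3b and zar1 were WDR89 (r = 0.836), WDR75 (0.818), zpax1 (0.818), ACSF3 (0.81) and zpax4 (0.806). zpax1 and zpax4 are named as zona pellucida genes. zpax4 had 74, 36 and 20 reads in DMSO larvae, 33, 19 and 22 at 0.3 nM and 15, 11 and 13 at 1.2 nM, against 2 to 16 in embryos and 0 to 2 in brain. zpax1 had 89, 35 and 40 reads in DMSO larvae, 40, 32 and 34 at 0.3 nM and 13, 26 and 28 at 1.2 nM. In both, DMSO replicate 1 was again the highest library. The genes most like the mean of ddx4, dazl, piwil1 and dnd1 were FGFR1 (r = 0.905), TCP11L2 (0.902), mhc1haa (0.897), carhsp1 (0.894) and NAA10 (0.894). The members behind each mean did not run together over these 24 libraries. Among the germ cell members r ran from -0.497 (ddx4 with piwil1) to 0.767 (ddx4 with dnd1). Among the oocyte members it ran from -0.501 (zp3b with zar1) to 0.745 (zp3a.1 with zar1), with buc and zp3a.1 at 0.417. Likeness to a mean is therefore not likeness to each member.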

How the data were processed

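Per the submitters' processing notes, the authors checked reads with FastQC, aligned them to GRCz10 with STAR and counted them with HTSeq; edgeR is also named there. For versions and annotation, nothing is given in the sources used here. Each file deposited by the authors gives raw counts of reads for Ensembl gene IDs. Per the labels, libraries were strand-specific, depleted of ribosomal RNA and sequenced as single 50-base reads. RNA of brains was isolated by another method than RNA of embryos and larvae, per the labels' protocols. All 24 files list the same 32105 IDs, of which 26269 received a symbol from the names table; symbols were matched ignoring case, since the table writes some as mammalian orthologs in capitals. Every pair of libraries within a group differed beyond counting noise (chi-square per degree of freedom at least 2.5).

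Counts were analysed here with edgeR 4.0.16 in R 4.3.3, with filterByExpr, TMM and the robust quasi-likelihood test. Benjamini-Hochberg adjustment ran over all genes tested, with calls made under 0.05. The ages had separate fits, and those between ages came from 1 joint fit of the 24 libraries. Standard errors are the size of the log2 fold change divided by the square root of F. CPM are counts scaled by TMM-adjusted library sizes of the age's own fit. Intervals on reads are exact Poisson intervals at 95% and cover counting error only. A group at 0 was given a floor of 3 reads over the group. Fold differences against this floor carry no counting interval. Alternatives were RLE size factors, no filter, DESeq2 1.42.0, the replicate number as a block and leaving out each library. After the main fits, the test was also tried on simulated data with known changes. These were placed in genes with more expected reads than most members have, so the trial does not cover low members.

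The members and gene lists were chosen with earlier results of these data known. Named genes are every member, the list genes called in a tested comparison or among the 4 with the smallest p, in larvae the 4 with the largest change among those with a mean of at least 10 reads, and the 5 most alike in pattern. In each list only some of these are named. Some genes that this rule picks are not reported here. The 16 egg coat genes, zpax1 and zpax4 together with them, and MSH4 and zp2l2 in the brain, were set out after their values were seen. Replicate numbers come from the titles. In embryos, libraries with the same number deviated together (r from 0.288 to 0.396). There the numbers were taken as pairs in the sign-flip test only. The main edgeR fits, embryos included, had no block, and the block was an alternative. In larvae r of same-numbered libraries ran from -0.169 to 0.269 and in brain from -0.207 to 0.0721, and the numbers were not taken as pairs. Sequences, coordinates and lengths of the members were not used here, so levels are not compared between genes.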

Additional observations from a re-analysis of the deposited data

Results flagged for a closer look

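Of the list genes outside the 2 tissue marker lists, 3 had a 0.3 nM effect in brain that differed from that in embryos. The difference itself was tested, in 1 edgeR fit of all 24 libraries, where 404 of 22545 genes (1.79%) were called. Among the tissue markers, 1 of 5 brain markers was called higher and 2 lower, and 1 of 9 other markers lower. For IGF2BP3, an RNA-binding protein of the germ plasm list, the difference was 0.60 (SE 0.14, adjusted p = 0.0319), with log2 fold changes of 0.00 in embryos and 0.62 in brain; the call was lost without DMSO embryo replicate 2 (0.0747), exposed embryo replicate 1 (0.0715) or 3 (0.0686), DMSO brain replicate 3 (0.0649) or exposed brain replicate 3 (0.069). For cyp1c1 it was -3.29 (SE 0.70, adjusted p = 0.0299), with 2.2 in embryos and -1.08 in brain; it was lost without DMSO embryo replicate 2 (0.0744), exposed embryo replicate 1 (0.065) or 3 (0.0542), DMSO brain replicate 3 (-2.47, 0.136) or exposed brain replicate 2 (0.0739) or 3 (0.0738). For cyp1c2, another gene induced by the receptor, it was -2.64 (SE 0.47, adjusted p = 0.00766), with 1.32 in embryos and -1.30 in brain, a call kept under every alternative that gave an adjusted p. Groups of 3 libraries are too small for a check of single outlying libraries.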

How the results depend on the processing

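The members called for 0.3 nM in brain went from 1 to 0 with the replicate number as a block, and leaving out each library gave 0 to 1. Larvae against embryos at 0.3 nM gave 1 to 2 called when each library was left out, and larvae against brain gave 3 under DESeq2 in place of 5. The replicate block changed no other member's call. Leaving out each library turned the log2 fold change of uncalled members around 0: ddx4 at 0.3 nM in embryos from -0.27 to 0.43, zp3b at 1.2 nM against 0.3 nM in brain from -0.56 to 0.027, piwil1 in larvae against embryos from -0.12 to 0.49 and against brain from -0.29 to 0.32, and the differences between brain and embryo effects of zar1 from -0.11 to 1.15 and of dazl from -0.51 to 0.49. vtg7, a yolk gene, at 0.3 nM in embryos ran from -0.74 to 0.26. The named list genes were put through the alternatives, and the sign-flip test in embryos added, after the data were seen. DESeq2 gave no adjusted p for cyp1c2, henmt1 and some low members, and these are not counted as lost. Counts over all genes moved more. For 1.2 nM in brain the 1769 calls became 2740 under DESeq2, 1027 with the block and 13 to 2263; for 0.3 nM in embryos the 2 became 4 under DESeq2 and 27 with the block. For 1.2 nM against 0.3 nM in brain the 19 became 161, 29 with no filter and 4 with the block, and the 404 differences between brain and embryo effects became 874 under DESeq2 and 97 to 976. RLE size factors and no filter changed no member's call. For 0.3 nM in brain the 2683 became 960 to 3057 when each library was left out. 4 of the 8 members had fewer than 30 reads in every library, and counting error limits what can be seen.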

Other observations

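Some germ cell and egg coat genes were read in some brains and hardly in others of the same group. MSH4, a meiotic recombination protein, had 190, 0 and 491 reads in DMSO brains, 0, 379 and 171 at 0.3 nM and 0, 390 and 0 at 1.2 nM. zp2l2, named as an egg coat gene, had 48, 31 and 44 reads in DMSO brains, 1, 40 and 2 at 0.3 nM and 82, 1 and 24 at 1.2 nM. Both were chosen after their values were seen.

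vtg7, a yolk precursor gene, had 35, 13 and 62 reads in DMSO embryos, 32, 6 and 42 in embryos at 0.3 nM, 0 to 5 in larvae and 0 to 2 in brain. It was the only one of 7 yolk precursor genes to pass the filter in embryos, with a log2 fold change of -0.33 (SE 0.63, adjusted p = 0.9999 by edgeR) at 0.3 nM.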
